A study of Caenorhabditis elegans with 12 samples.

Results

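The 9 genes described here encode the core of the *C. elegans* insulin receptor pathway: *daf-2*, *ist-1*, *age-1*, *daf-18*, *pdk-1*, *akt-1*, *akt-2*, *sgk-1* and *daf-16*. They were chosen by name, as the rows that carry these symbols among the 19997 genes measured, a rule that uses no measured value, although earlier results of these data were known when the genes and the gene lists were chosen. Their transcripts were measured by mRNA-seq of whole worms, in 12 samples that fall into 5 groups, with a minimum of 80 worms in each. Wild-type (WT) animals carried *eri-1(mg366)*, an allele that enhances RNA interference, and *daf-2* animals carried *eri-1(mg366)* together with *daf-2(e1370)*, a mutation in the receptor gene itself. Both were sampled on day 1 of adulthood with 3 samples each. Animals carrying *glp-4(bn2)*, a temperature-sensitive mutation that leaves adults with almost no germ line, were collected at 3 ages, day 1, day 3 and day 7 of adulthood, and each age has 2 samples. All groups received 50 µM FUDR, which blocks progeny production, from the late L4 stage and were kept at 20 °C from then on. The labels name control RNAi bacteria for the *daf-2* group only and do not say what the WT group ate. They give a larval temperature of 15 °C for every sample, whereas the study's methods name a higher one for *glp-4* animals.

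In this pathway, insulin-like peptides bind the receptor DAF-2, which acts directly and through the adaptor IST-1 on AGE-1, the catalytic subunit of PI3K. AGE-1 makes the membrane lipid PIP3, the phosphatase DAF-18 removes it, and PIP3 recruits the kinases PDK-1, AKT-1 and AKT-2. The AKT kinases phosphorylate the FOXO transcription factor DAF-16 and keep it out of the nucleus. When signalling is low, DAF-16 enters the nucleus and changes the expression of stress resistance and longevity genes. Much of this control acts on proteins, so transcript levels describe the supply of the components and not the activity of the pathway.

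Total counts per sample ranged from 4538353 to 22484551, and the *glp-4* day 7 samples were the shallowest. A floor of 3 counts corresponds to 0.133 to 0.661 counts per 1e+06 of the library total, without TMM factors. CPM (counts per 1e+06) elsewhere in the text are scaled by TMM factors. No member fell below 80 counts in any sample, so every member was measured well above the floor. The floor covers counting error only. Nothing in the labels says that samples of a group came from separate cultures, so p-values measure the spread between these samples, which may be partly technical. The levels of *daf-2*, *eri-1* and *glp-4* were not used as a check of the labels. The near absence of germ cell transcripts in *glp-4* animals was used instead: the summed TPM (transcripts per 1e+06) of 10 germ cell markers was 13.1 to 16.8 in *glp-4* animals on day 1 against 1574 to 1710 in WT.

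The genes lie on 6 chromosomes of the WBcel235 assembly. *daf-2* (WBGene00000898) spans chromosome III:2994514-3040846 on the minus strand, with 7 annotated transcripts, *age-1* (WBGene00000090) spans II:11519328-11527054 on the minus strand, with 2, and *daf-18* (WBGene00000913) spans IV:420011-425177 on the minus strand, with 1. *akt-1* (WBGene00000102) is at V:10248905-10252845 on the plus strand, with 3 transcripts. 4 members are on the X chromosome: *pdk-1* (WBGene00003965) at X:1321344-1327986 on the plus strand, *ist-1* (WBGene00002163) at X:7126648-7139666 on the plus strand, *akt-2* (WBGene00000103) at X:14147700-14152070 on the plus strand and *sgk-1* (WBGene00004789) at X:16254842-16262122 on the minus strand. *daf-16* (WBGene00000912) lies on chromosome I with 11 transcripts, more than any other member. The library kit does not mark strand, so reads from the protein-coding genes annotated on the opposite strand within *age-1* (B0334.10 and Y62F5A.10), *pdk-1* (F21E9.2) and *akt-1* (*rop-1*) cannot be told apart from reads of the member where they overlap. No member had the same counts as another gene in every sample.

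The members spanned a wide range of abundance in WT animals on day 1. Per length, as mean TPM ± SD of 3 samples, the phosphatase *daf-18* was highest at 212 ± 8.76, followed by *akt-1* at 110 ± 3.69 and *daf-16* at 61.6 ± 6.95. The receptor *daf-2* (29.0 ± 1.57) and *age-1* (29.3 ± 5.69) did not differ beyond their spread. *sgk-1*, which encodes a serum- and glucocorticoid-inducible kinase, had 13.8 ± 2.62 TPM and overlapped *pdk-1* at 12.4 ± 1.02. *akt-2* had 9.15 ± 0.487 and the adaptor *ist-1* 2.97 ± 0.320 TPM, the lowest level. The order in *daf-2* animals was alike at both ends, with *daf-18* (190.5 ± 4.91) and *akt-1* (175 ± 9.73) at the top, here overlapping, and *ist-1* (5.16 ± 0.418) at the bottom. *akt-2* (22.8 ± 2.91) stood above *sgk-1* (10.9 ± 0.651) in *daf-2* animals, without overlap, while in WT it stood below it.

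In *glp-4* animals on day 1 the order was another one, led by *daf-16* at 109 ± 3.30 TPM (SD, n = 2) and *sgk-1* at 41.6 ± 2.57. *daf-18*, the most abundant member in WT, had 4.96 ± 0.568 TPM and stood between *pdk-1* (6.88 ± 0.621) and *age-1* (4.0 ± 0.272). On day 3 and day 7 *daf-16* stayed first, at 146 ± 7.44 and 146 ± 2.96 TPM, and *age-1* was last, at 3.89 ± 0.682 and 5.89 ± 0.216. *daf-18* and *pdk-1* exchanged places with age: on day 3 *pdk-1* had 13.5 ± 0.208 TPM and *daf-18* 6.65 ± 0.349, and on day 7 *daf-18* had 12.99 ± 0.625 and *pdk-1* 7.00 ± 0.334. The values of these genes did not overlap at either age.

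**Figure D1:**
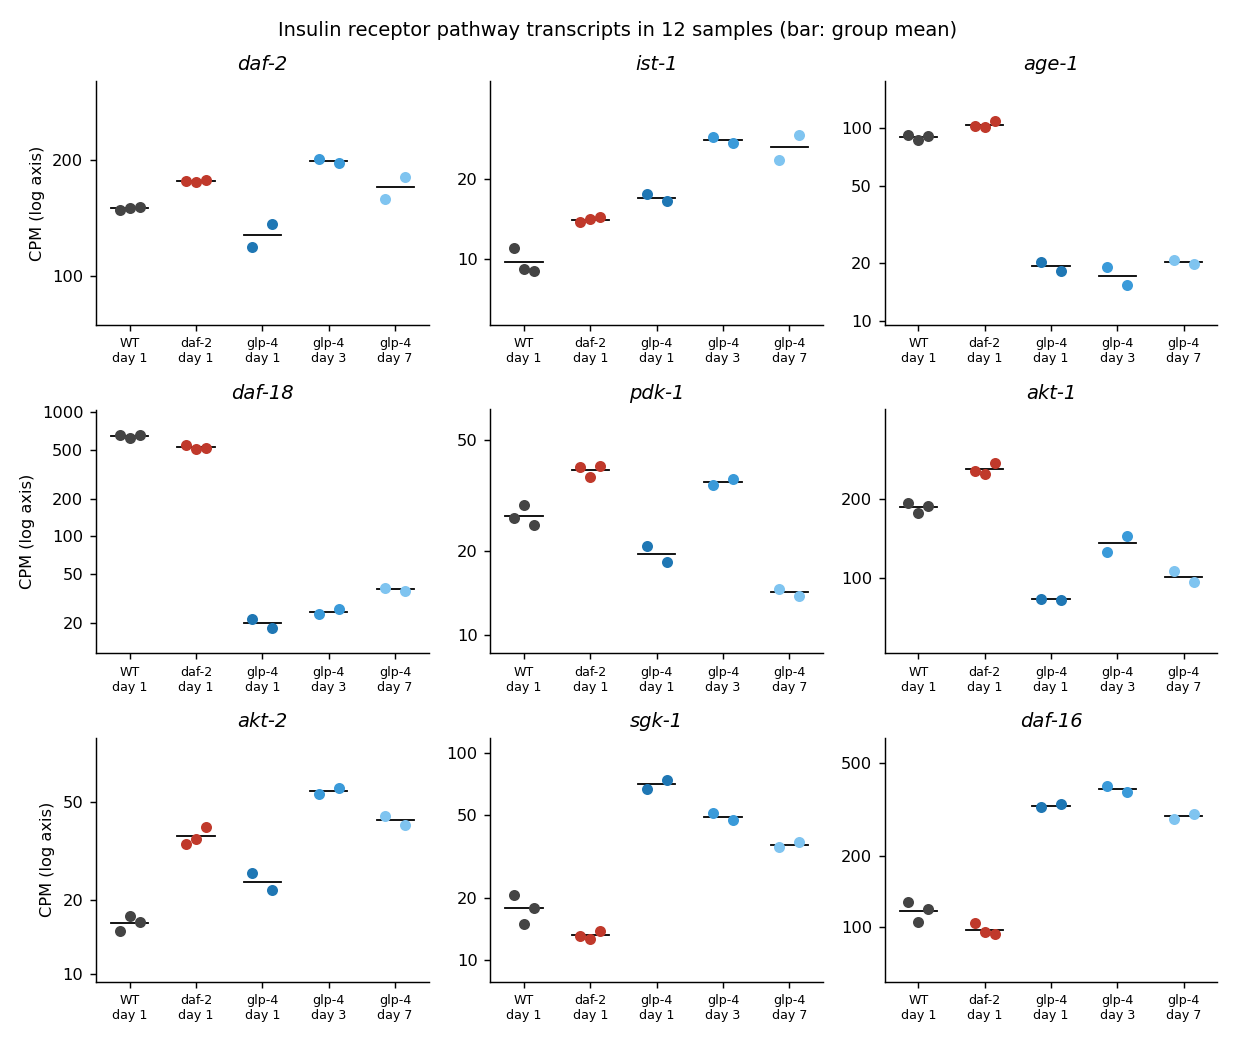
Level of each of the 9 pathway transcripts in every sample, in CPM on a log axis, by group; points are samples and bars are group means. *daf-18* and *age-1* are far lower in the *glp-4* samples, *daf-16* and *sgk-1* are higher there, and *akt-2* is higher in *daf-2* than in WT samples without overlap.

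Setting *daf-2* animals against WT asks how lowered receptor signalling is accompanied by changes in the transcripts of its own pathway. Because the labels do not give the food of the WT group, a difference in food cannot be told apart from genotype here. All 9 members differed: 6 were higher in *daf-2* animals (*akt-2*, *pdk-1*, *ist-1*, *akt-1*, *daf-2* and *age-1*) and 3 were lower (*sgk-1*, *daf-18* and *daf-16*). Calls rest on edgeR's quasi-likelihood test with a Benjamini-Hochberg adjusted p under 0.05 over all 13528 tested genes, of which 48.0% were called, 25.5% as higher and 22.5% as lower. On the CPM scale the groups did not overlap for any of the 9 members, against 56.4% of all tested genes. On the TPM scale the ranges of *age-1*, *daf-16* and *sgk-1* overlapped between *daf-2* and WT samples, and those of the other members did not. Counts of members and genes without overlap in the later comparisons also rest on CPM. The median absolute log2 fold change was 0.42 over the members and 0.28 over all tested genes, so most of these changes were modest.

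*akt-2*, which encodes one of the AKT kinases, changed most. Its level was 33.6, 35.3 and 39.5 CPM in the *daf-2* samples and 14.9, 17.2 and 16.3 CPM in the WT samples. Every *daf-2* sample was above every WT sample, and the log2 fold change was 1.19 (SE 0.09, adjusted p = 2.8e-06), or 2.27-fold. Its paralogue *akt-1* had 255, 249.7 and 273 CPM in *daf-2* and 192, 177 and 188 CPM in WT samples. *akt-1* thus rose as well, by 0.50 on the log2 scale (SE 0.05, adjusted p = 1.1e-05), a smaller change from a far higher level.

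*pdk-1*, the kinase that phosphorylates AKT proteins, had 40.2, 37.05 and 40.3 CPM in *daf-2* samples and 26.3, 29.2 and 24.8 CPM in WT samples. *ist-1* had 13.7, 14.1 and 14.3 CPM against 11.02, 9.13 and 9.03 CPM. Both were higher in all *daf-2* samples, with log2 fold changes of 0.57 (SE 0.08, adjusted p = 0.00013) for *pdk-1* and 0.55 (SE 0.11, adjusted p = 0.0019) for *ist-1*.

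The receptor transcript itself was tightly reproduced between samples, with 177, 176 and 178 CPM in *daf-2* animals and 149, 151 and 151 CPM in WT. It was 1.19-fold higher in the mutant (log2 fold change 0.26, SE 0.04, adjusted p = 0.00026). *age-1*, whose product acts downstream of the receptor, had 102, 100.3 and 109 CPM against 91.3, 85.95 and 90.8 CPM, a rise of 0.24 on the log2 scale (SE 0.05, adjusted p = 0.0019). These are the smallest rises among the members, and on TPM values with limma the *age-1* change was not called (adjusted p = 0.076).

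The 3 members called as lower encode the phosphatase that opposes AGE-1, the serum- and glucocorticoid-inducible kinase and the transcription factor at the end of the pathway. *daf-18* had 543, 508.5 and 519 CPM in *daf-2* samples and 651, 620.5 and 659 CPM in WT samples, and its fall of −0.28 on the log2 scale had an SE of 0.04 and an adjusted p of 0.00018. *daf-16* had 104, 95.2 and 94.05 CPM against 128, 105 and 119 CPM (log2 fold change −0.25, SE 0.06, adjusted p = 0.0079). The lowest WT sample of *daf-16* lay just above the highest *daf-2* sample. *sgk-1* had 275, 201 and 296 counts, at most 13.75 CPM, in *daf-2* samples against 20.5, 15.0 and 17.9 CPM in WT samples, a difference of −0.42 on the log2 scale (SE 0.12, adjusted p = 0.012). Scaling by library totals alone, which put the median of all genes at 0.13, left neither *daf-16* (adjusted p = 0.12) nor *sgk-1* (adjusted p = 0.065) called, and limma on TPM left neither called as well (adjusted p = 0.69 and 0.12). Without WT replicate 1, *sgk-1* had an adjusted p of 0.052.

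Markers of other tissues moved along with this comparison. Of 10 germ cell markers, 9 fell and 1 rose in the mutant, with summed levels of 1433 to 1442 TPM against 1574 to 1710 TPM in WT. Of 7 oocyte and egg markers 6 were lower (4396 to 4453 against 4979 to 5066 TPM), and 5 of 5 sperm markers were higher (432 to 464 against 202 to 276 TPM). No gene of these 3 lists was at 0. In the intestine list 4 of 6 markers were lower and 1 was higher (305 to 370 against 499 to 523 TPM), 1 of 9 neuron markers was higher (316 to 362 against 288 to 303 TPM), and of the 5 body wall muscle markers 1 was higher and 1 lower. Of the 5 epidermis markers 3 were tested, 1 higher and 2 lower (1606 to 1814 against 2125 to 2204 TPM), with up to 1 marker at 0 in a *daf-2* sample. Most of the epidermis sum was *col-19*, with a mean of 1701 TPM in *daf-2* and 2157 TPM in WT samples. The part of all these markers in the changes of the members was not tested, and in whole animals fewer cells of a type cannot be told apart from less RNA per cell.

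The ratio of *akt-1* to *akt-2* within a sample does not depend on scaling between samples. It was 10.9 to 12.97 in WT and 7.27 to 8.58 in *daf-2* samples on the TPM scale, with no overlap. The difference of the mean log2 ratios was −0.64, and the two-sided exact permutation test gave p = 0.1, the smallest value 3 against 3 samples allow (adjusted over 2 ratios, p = 0.2). *age-1* to *daf-18*, the pair that makes and removes PIP3, stood at 0.119 to 0.165 in WT and at 0.164 to 0.238 in *daf-2* samples. These ranges touched, and the difference of 0.60 on the log2 scale had an exact permutation p of 0.2. Counts are not divided by the estimated transcript length, but they still vary with the length of the transcripts present. On counts, the log2 ratio was −2.41, −2.34 and −2.25 in *daf-2* samples and −2.83, −2.85 and −2.86 in WT samples. The groups did not overlap there, and the difference of 0.51 had an exact permutation p of 0.1, the smallest possible. In *glp-4* animals, given as values only, *akt-1* to *akt-2* was 3.19 to 3.69 on day 1, 2.26 to 2.49 on day 3 and 2.31 to 2.36 on day 7. *age-1* to *daf-18* was 0.782 to 0.836 on day 1, 0.494 to 0.683 on day 3 and 0.450 to 0.457 on day 7.

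**Figure D2:**
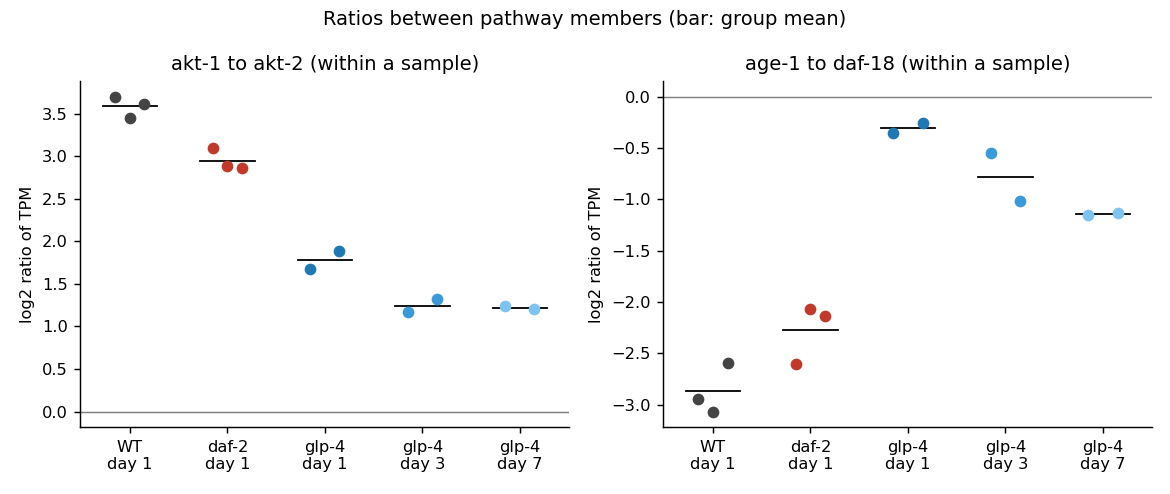
Log2 ratio of TPM values within each sample for *akt-1* to *akt-2* (left) and *age-1* to *daf-18* (right), by group; points are samples, bars are group means, and the grey line marks equal levels. *akt-1* exceeds *akt-2* in all 12 samples and least so in *glp-4* animals on days 3 and 7, and *age-1* stays below *daf-18* in all 12 samples.

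A list of 11 DAF-16 targets was set beside the members. It was chosen with earlier results of these data known, so counts of its genes are a description and not a test of pathway activity. In *daf-2* animals 9 of the 9 tested targets were higher, with a median log2 fold change of 3.20 against 0.00 over all tested genes. *mtl-1*, a metallothionein, stood at 31.9 ± 6.36 CPM in the mutant and at 0.435 ± 0.207 CPM in WT (SD, n = 3 each) (log2 fold change 6.25, SE 0.24, adjusted p = 2e-08). *ftn-1*, a ferritin, had 30.3 ± 6.29 against 1.04 ± 0.322 CPM (4.86, SE 0.22, adjusted p = 7.6e-08). These targets rose while the *daf-16* transcript itself was slightly lower on the CPM scale. On the TPM scale *daf-16* had a mean of 59.5 in *daf-2* and 61.6 in WT samples, with overlapping ranges. *scl-1* and *old-1* did not pass the filter on low counts. *scl-1* had at most 3 counts per sample, and *old-1* had 0 to 3 counts in *daf-2* samples and 5 to 11 counts in WT samples, so that this target ran the other way without a test.

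Of 22 other components of the pathway 18 were tested, of which 6 rose and 4 fell in the mutant. The largest differences were in *sinh-1* (log2 fold change 0.49) and *rict-1* (0.42), which encode components of TORC2, a kinase complex that activates SGK-1, and in *shc-1* (−0.36), an adaptor, and *par-5* (−0.24), a 14-3-3 protein that binds phosphorylated DAF-16. Adjusted p-values of these genes lay between 2.7e-05 and 0.0072. The median absolute log2 fold change of this list was 0.16, below the 0.28 of all tested genes. Among 8 insulin-like ligands, *ins-7* was lower (1.14 ± 0.182 against 2.09 ± 0.289 CPM, log2 fold change −0.85, adjusted p = 0.017) and *ins-35* was higher, with 17 to 22 counts per *daf-2* sample and 1 to 2 counts per WT sample. The remaining 6 ligands were not called.

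**Figure D3:**
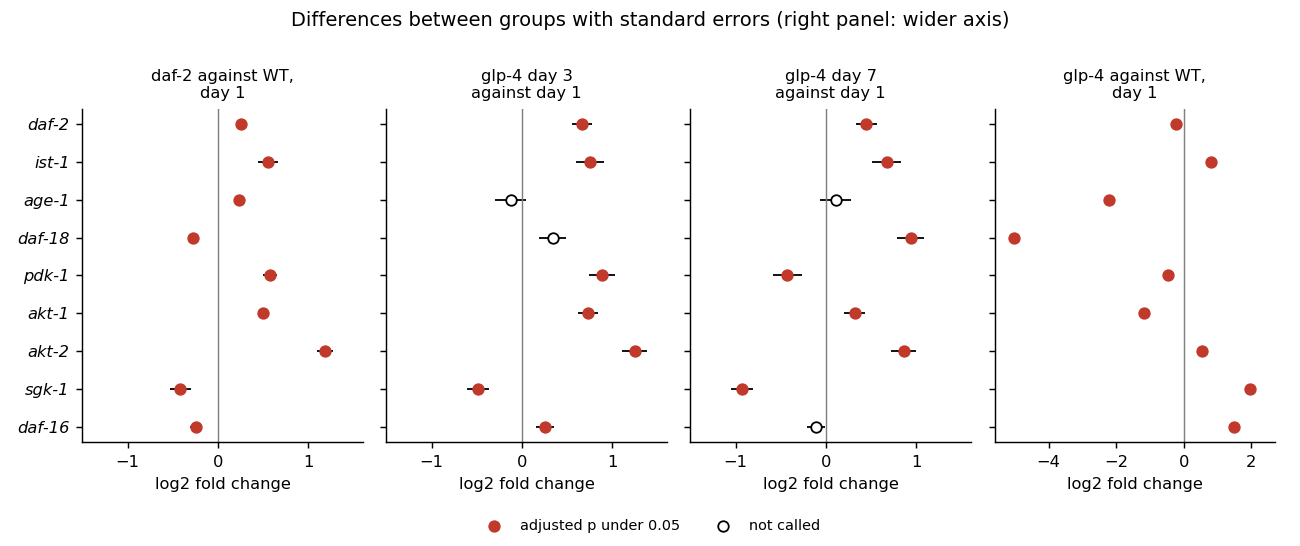
Log2 fold change of each member in 4 comparisons, with bars of 1 SE; filled points passed an adjusted p of 0.05 in edgeR's quasi-likelihood test. In *daf-2* against WT the values run from −0.42 (*sgk-1*) to 1.19 (*akt-2*), and in *glp-4* against WT, on a wider axis, from −5.01 (*daf-18*) to 1.98 (*sgk-1*).

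Ageing was followed in *glp-4* animals. From day 1 to day 3, 7 of the 9 members changed: *akt-2*, *pdk-1*, *ist-1*, *akt-1*, *daf-2* and *daf-16* rose and *sgk-1* fell. Of all 13222 tested genes 54.1% were called, 26.6% as higher and 27.5% as lower, and 8 members did not overlap between the ages, against 76.3% of all tested genes. The median absolute log2 fold change was 0.66 over the members and 0.64 over all tested genes, so the size of their changes was close to that of the other genes.

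*akt-2* again had the largest change of the members, from 25.6 and 21.9 CPM on day 1 to 53.8 and 56.6 CPM on day 3 (log2 fold change 1.25, SE 0.13, adjusted p = 2.3e-06). *pdk-1* rose from 20.95 and 18.2 to 34.6 and 36.4 CPM (0.89, SE 0.15, adjusted p = 0.00014). In both genes the day 3 samples lay well above the day 1 samples. *akt-1* rose from 83.2 and 82.9 to 126 and 145 CPM (0.73, SE 0.11, adjusted p = 8.2e-05), and *ist-1* from 17.5 and 16.45 to 28.7 and 27.3 CPM (0.75, SE 0.16, adjusted p = 0.0010). The receptor gene *daf-2* rose from 119 and 136 to 201 and 196 CPM (0.66, SE 0.11, adjusted p = 0.00017). The fall of *sgk-1*, from 67.0 and 73.5 to 51.0 and 47.3 CPM (−0.49, SE 0.12, adjusted p = 0.0031), set it apart from the *akt* genes.

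*daf-16* had 323 and 334 CPM on day 1 and 398 and 374 CPM on day 3, 0.26 on the log2 scale (SE 0.10, adjusted p = 0.039). This call was at the edge of the threshold: it was lost without *glp-4* day 1 replicate 1 (adjusted p = 0.097), day 3 replicate 1 (0.17) or day 3 replicate 2 (0.075), and with DESeq2 (0.058). *daf-18* had 21.8 and 18.3 CPM on day 1 and 23.5 and 26.1 CPM on day 3 (0.34, SE 0.15, adjusted p = 0.076), and *age-1* 20.25 and 18.2 against 19.15 and 15.4 CPM (−0.13, SE 0.17, adjusted p = 0.56). Neither was called, and the *age-1* values overlapped.

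No sample is shared between the *daf-2* comparison and the ageing comparison, so their calls were set side by side. *daf-2*, *ist-1*, *pdk-1*, *akt-1* and *akt-2* were higher both in *daf-2* animals and on day 3, which is 5 of the 6 members higher in either comparison (83.3% of each list). As 6 of all 9 members were higher on day 3, against 3165 of 11731 genes, a large overlap of these short lists is not a result about the members. *sgk-1* was lower in both, and *daf-16* was lower in *daf-2* animals and higher on day 3. Over all 11731 genes tested in both, 40.4% of the genes higher in *daf-2* animals were also higher on day 3, and 30.3% of the genes higher on day 3 were also higher in *daf-2* animals. Of all genes lower in *daf-2* animals, 43.6% were lower and 22.9% were higher on day 3. On day 7, 4 of the 6 members higher in *daf-2* animals were higher than on day 1, against 41.2% of all genes higher in *daf-2* animals, and *pdk-1* was lower, against 25.0%. Of the 3 members lower in *daf-2* animals, *sgk-1* was lower and *daf-18* was higher on day 7. Of all genes lower in *daf-2* animals, 49.4% were lower and 23.9% were higher.

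From day 1 to day 7, 7 members were called, with 61.9% of all tested genes called, 30.6% as higher and 31.3% as lower. *daf-18*, *akt-2*, *ist-1*, *daf-2* and *akt-1* were higher on day 7 and *sgk-1* and *pdk-1* were lower, and 8 members did not overlap, against 81.7% of all tested genes. This comparison shares its day 1 samples with the one before. *daf-18* had 38.7 and 36.2 CPM on day 7, 0.94 above day 1 on the log2 scale (SE 0.15, adjusted p = 8.3e-05). *akt-2*, at 43.9 and 40.3 CPM, was 0.86 higher (SE 0.14, adjusted p = 8.5e-05), and *sgk-1*, at 35.1 and 37.0 CPM, was lower by −0.93 (SE 0.12, adjusted p = 1.5e-05). These 3 genes kept their calls without any single sample and with every other scaling tried.

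The other calls on day 7 were weaker. *ist-1* had 23.5 and 29.1 CPM (0.67, adjusted p = 0.0023), *daf-2* 159 and 182 CPM (0.45, adjusted p = 0.0034) and *akt-1* 106 and 96.7 CPM (0.32, adjusted p = 0.027). All were called as higher with each of the scalings, but *akt-1* was not called with DESeq2 (adjusted p = 0.089). Without *glp-4* day 7 replicate 2 none of them was called, and *akt-1* also lost its call without another single sample. On leaving out single samples the log2 fold change ran from 0.49 to 0.80 for *ist-1*, from 0.34 to 0.54 for *daf-2* and from 0.24 to 0.38 for *akt-1*. *pdk-1* had 14.7 and 13.8 CPM, lower than on day 1 (−0.43, adjusted p = 0.036), a call that was lost without *glp-4* day 1 replicate 1 (adjusted p = 0.15), day 7 replicate 1 (0.08) or day 7 replicate 2 (0.16). With library totals alone or limma on TPM its sign turned (0.11 and 0.02, neither called). *daf-16*, at 289 and 304 CPM, was not called with TMM scaling (−0.11, adjusted p = 0.33) but was higher with library totals (0.42, adjusted p = 0.0013) and with limma on TPM (0.43, adjusted p = 0.0056).

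These shifts follow the median of all genes, which between day 1 and day 7 lay at 0.02 with TMM, 0.22 with upper-quartile factors, 0.56 with library totals and 0.41 with limma on TPM. The share of calls that were higher moved with it, from 49.4% to 58.7%, 71.6% and 68.6%. Relative to those medians *sgk-1* lay below and *daf-18* and *akt-2* above in each setting.

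Between day 3 and day 7, 6 members were called, against 32.6% of all tested genes (14.2% higher and 18.4% lower). *pdk-1* fell from 34.6 and 36.4 to 14.7 and 13.8 CPM, a difference of −1.31 on the log2 scale (SE 0.16, adjusted p = 2.3e-05). *daf-18* rose from 23.5 and 26.1 to 38.7 and 36.2 CPM (0.60, SE 0.15, adjusted p = 0.0072), a call that was lost without *glp-4* day 3 replicate 1 (adjusted p = 0.087) or day 7 replicate 1 (0.063) and stood at 0.05 with DESeq2. The samples of these ages did not overlap in either gene, nor in 8 of the 9 members, against 67.6% of all tested genes. *sgk-1* (−0.44), *akt-1* (−0.41), *akt-2* (−0.38) and *daf-16* (−0.37) were called as lower with TMM, but with library totals all 4 had positive values between 0.07 and 0.14 and with limma on TPM values between −0.12 and 0.00. *pdk-1* and *daf-18* were the 2 members called with upper-quartile factors and with limma, and *pdk-1* was called in every setting. Leaving out *glp-4* day 3 replicate 1, day 7 replicate 1 or day 7 replicate 2 reduced the count of called members to 2 in each case, and leaving out day 3 replicate 2 to 4. *daf-2* (−0.22), *ist-1* (−0.08) and *age-1* (0.23) were not called.

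**Figure D4:**
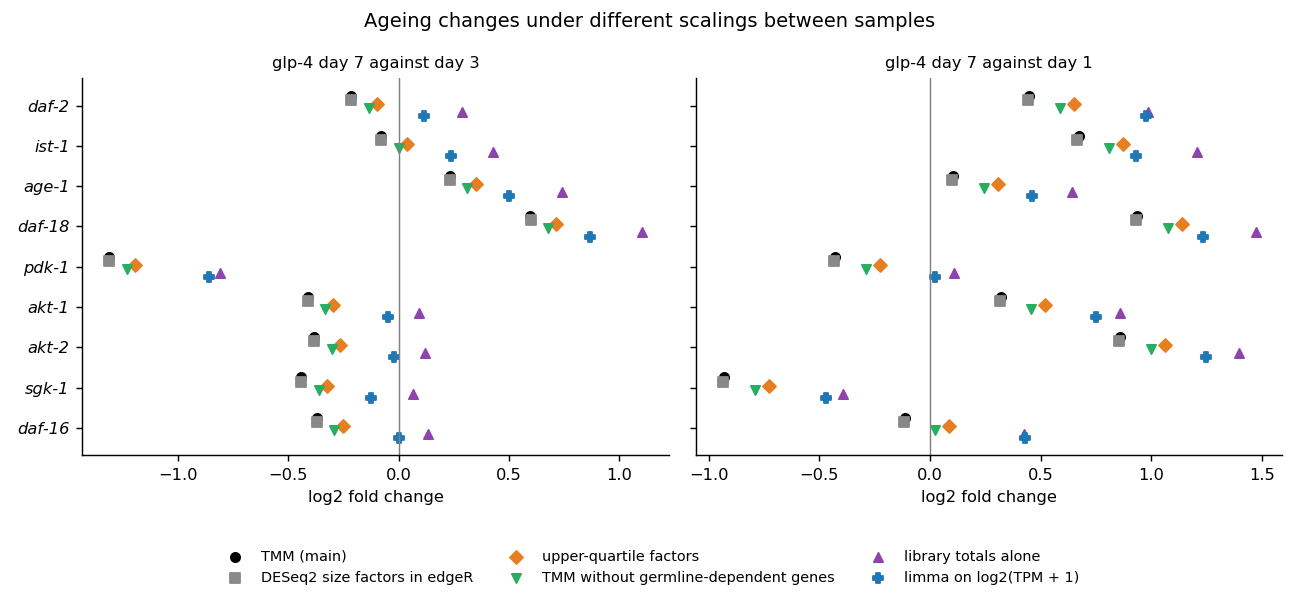
Log2 fold change of each member from day 3 to day 7 (left) and from day 1 to day 7 (right) in *glp-4* animals under 6 ways of scaling the samples; each symbol is 1 setting. *pdk-1* stays on the left of 0 and *daf-18* on the right in all settings from day 3 to day 7, while *sgk-1*, *akt-1*, *akt-2* and *daf-16* cross or reach 0.

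Germ cell markers moved with age in the same samples. All 10 were higher on day 7 than on day 1, and their summed level was 13.1 to 16.8 TPM on day 1, with up to 1 marker at 0, 59.6 to 65.6 TPM on day 3 and 174 to 175 TPM on day 7. The list of oocyte and egg markers summed to 517 to 757, 5916 to 6122 and 5885 to 5887 TPM, and all 7 of its genes were higher on day 7 than on day 1. *perm-2* alone held a mean of 634, 5998 and 5821 TPM, while *oma-1*, *oma-2*, *rme-2*, *puf-5*, *egg-1* and *cbd-1* rose from low levels (log2 fold changes of 3.45 for *cbd-1* to 5.46 for *rme-2*) to means of at most 26.6 TPM. Sperm markers summed to 10.8 to 13.3 TPM on day 1, with up to 3 of 5 at 0, and to 16.6 to 30.3 TPM on day 7. Body wall muscle markers fell from 3786 to 4432 TPM to 517 to 564 TPM (5 of 5 lower), epidermis markers from 3535 to 4445 TPM to 127 to 129 TPM (5 of 5 lower) and intestine markers from 2939 to 2978 TPM to 580 to 633 TPM (6 of 6 lower). Most of the epidermis sum on day 1 was *col-19*, with a mean of 3738 TPM on day 1 and 89.1 TPM on day 7, while *elt-3* had 42.4 and 37.6 TPM. In the same list, *bli-1* had a mean of 311 CPM on day 1, 2.34 on day 3 and 1.55 on day 7. *rol-6* had 118, 0.346 and 0.539 CPM, and *dpy-7* had 27.1, 0 and 0.172 CPM. In WT animals on day 1 the means of *bli-1*, *rol-6* and *dpy-7* were at most 0.570 CPM. The part of developmental stage in the changes after day 1 was not tested. Neuron markers summed to 329 to 334 TPM on day 1, 636 to 661 TPM on day 3 and 894 to 918 TPM on day 7, of which *snb-1* held a mean of 173, 476.5 and 685.5 TPM, and from day 1 to day 7 2 of the 9 genes were higher and 1 was lower. The part of these markers in the changes of the members with age, *daf-18* included, was not tested.

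Of the 10 tested DAF-16 targets 8 were higher on day 3 than on day 1, with a median log2 fold change of 2.72 against 0.00 over all tested genes. *lys-7*, a lysozyme, rose from 84.9 ± 15.7 to 9721 ± 945.5 CPM (SD, n = 2; log2 fold change 6.86, adjusted p = 1.3e-12) and *mtl-1* from 13.8 ± 2.60 to 532 ± 71.3 CPM (5.31, adjusted p = 6.4e-12). From day 3 to day 7, 5 targets fell and 2 rose. *sod-3*, the mitochondrial superoxide dismutase widely used as a DAF-16 reporter, went from 18.4 ± 3.22 to 6.15 ± 0.131 CPM (−1.57, adjusted p = 0.00039) and *ftn-1* from 122 ± 0.109 to 58.6 ± 1.83 CPM (−1.05, adjusted p = 6.3e-05). The small heat shock gene *hsp-12.6* (2.04, adjusted p = 0.00013) and *sip-1* (1.24, adjusted p = 0.00017) rose. Between these ages the direction therefore differed from target to target. The lists outside the 9 members were fitted with TMM scaling alone. From day 1 to day 7, 7 targets were higher, led by *lys-7* (6.10) and *hsp-12.6* (5.13), and *icl-1* was lower (−0.52).

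**Figure D5:**
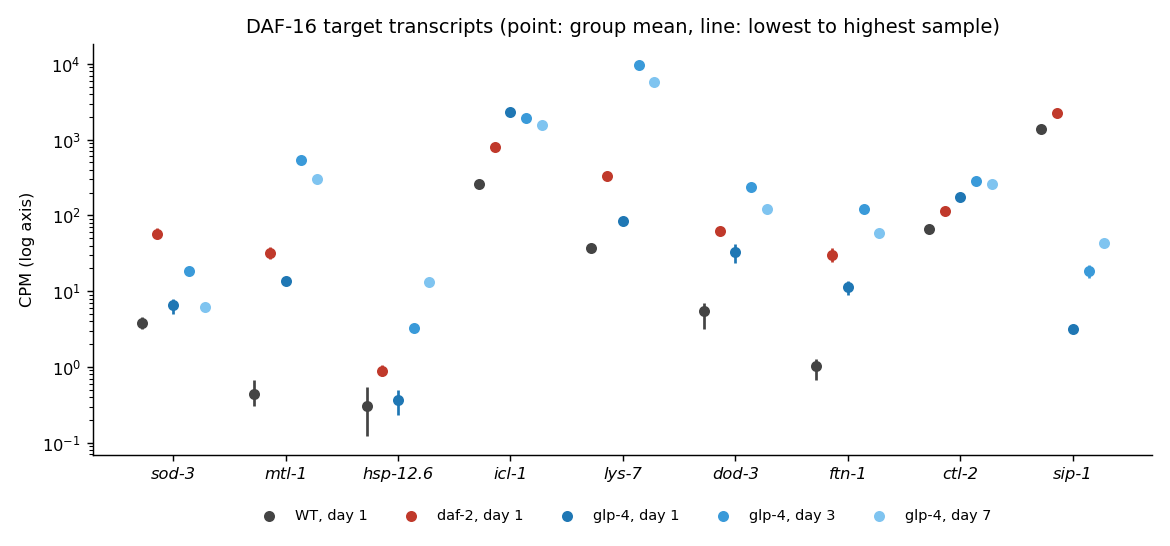
Level of the 9 DAF-16 targets that were tested in *daf-2* against WT, in CPM on a log axis; points are group means and lines run from the lowest to the highest sample. All 9 are higher in *daf-2* than in WT animals, *mtl-1*, *lys-7* and *ftn-1* peak in *glp-4* animals on day 3, and *sip-1* is low in all *glp-4* groups.

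Among the ligands, 7 of 8 were tested in *glp-4* animals, and from day 1 to day 7 5 were higher and 1 was lower. *ins-4* rose from 2.40 ± 0.0949 to 17.95 ± 1.62 CPM (log2 fold change 2.93, adjusted p = 3.3e-07), most of it after day 3, and *ins-6* by 1.82 (adjusted p = 0.0039). *ins-35* fell from 19 to 52 counts per sample to at most 2 counts. From day 1 to day 3, *ins-7* (1.93, adjusted p = 5.4e-07) and *ins-6* (1.28, adjusted p = 0.036) were higher and *ins-35* was lower. The day 3 samples of *ins-6* stood apart, at 2.19 and 7.11 CPM (16 and 49 counts) against at most 2.095 CPM on day 1, so that its rise rests on 1 sample. From day 3 to day 7 *ins-4* (2.32) and *daf-28* (1.58) were higher.

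Of the 18 other components tested, 4 rose and 4 fell from day 1 to day 3. The largest rises were those of *rle-1* (0.74), which encodes an E3 ubiquitin ligase of DAF-16, and *aap-1* (0.61), the adaptor subunit that partners AGE-1, and the largest falls those of *shc-1* (−0.72) and *sinh-1* (−0.69). By day 7, 5 were higher and 5 lower than on day 1, led by *aap-1* (1.09) and *math-33* (0.63), a deubiquitinase of DAF-16, and by *par-5* (−0.79) and *let-363* (−0.61), the TOR kinase. From day 3 to day 7, 4 rose and 2 fell. *rle-1* fell by 1.04 on the log2 scale and the 14-3-3 gene *ftt-2* by 0.43, while *hcf-1* (0.63), a nuclear regulator of DAF-16, and *sir-2.1* (0.52), a sirtuin, rose. With TMM scaling *rle-1* thus rose and fell over the same intervals as *pdk-1*, and so did *akt-1*, *akt-2* and *daf-16*.

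The last comparison sets *glp-4* against WT animals on day 1, that is, animals almost without against animals with a germ line. All 9 members differed, 4 higher and 5 lower in *glp-4* animals, in a comparison in which 85.4% of the 15610 tested genes were called (45.5% higher, 40.0% lower) and 89.7% did not overlap. Absence of the germ line and the *eri-1* allele differ together between these groups. By the study's methods, though not by the labels, larval temperature differs with them. These differences cannot be told apart. The food of the WT group is not given in the labels. Whether developmental stage differed too was not tested. The epidermis markers *bli-1* and *rol-6* had means of 311 and 118 CPM in *glp-4* and of 0.467 and 0.0735 CPM in WT animals. *daf-18* had 21.8 and 18.3 CPM in *glp-4* samples against 651, 620.5 and 659 CPM in WT, 32.2-fold lower (log2 fold change −5.01, SE 0.10, adjusted p = 6e-17). *age-1* had 20.25 and 18.2 CPM against 91.3, 85.95 and 90.8 CPM, 4.65-fold lower (−2.22, SE 0.10, adjusted p = 1.2e-12), and *akt-1* 83.2 and 82.9 CPM against 192, 177 and 188 CPM, 2.24-fold lower (−1.16, SE 0.09, adjusted p = 7.7e-10). Of the 15610 tested genes, 3413 were called with a log2 fold change under −2 in this comparison. Of the 9 members 2 were among them, *daf-18* and *age-1*, a share close to that of all tested genes.

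*sgk-1* and *daf-16* stood on the other side. *sgk-1* had 67.0 and 73.5 CPM in *glp-4* samples against 20.5, 15.0 and 17.9 CPM, 3.94-fold higher (1.98, SE 0.11, adjusted p = 1.7e-11). *daf-16* had 323 and 334 CPM against 128, 105 and 119 CPM, 2.80-fold higher (1.48, SE 0.08, adjusted p = 1.9e-11). Both kept their direction and call in every setting. The rises of *ist-1* (0.80, adjusted p = 2.8e-05) and *akt-2* (0.55, adjusted p = 0.00024) turned to −0.03 and −0.28 when TMM factors were estimated without the germline-dependent genes. *pdk-1* (−0.45, adjusted p = 0.0012) was not called with upper-quartile factors, and *daf-2* (−0.23, adjusted p = 0.013) turned to 0.12 there. Without *glp-4* day 1 replicate 1, *daf-2* had an adjusted p of 0.17. The median of all genes lay at 0.28 with TMM, 0.63 with upper-quartile factors and −0.53 with TMM without those genes, and *daf-18*, *age-1* and *akt-1* lay below it and *sgk-1* and *daf-16* above it in each of these.

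Marker lists differed strongly in the same comparison. All 10 germ cell, 7 oocyte and egg and 5 sperm markers were lower in *glp-4* animals. Neuron (8 of 9), intestine (6 of 6), body wall muscle (5 of 5) and epidermis markers (5 of 5) were higher, with summed levels of 2939 to 2978 TPM against 499 to 523 TPM for the intestine and 3786 to 4432 TPM against 1572 to 1580 TPM for body wall muscle. Their part in the changes of the members was not tested. Of the other components all 18 tested were called, 7 higher and 11 lower. The largest falls were those of *hcf-1* (−3.22) and *eak-7* (−2.43), a plasma membrane protein that acts in parallel to AKT-1, and the largest rises those of *ftt-2* (1.80) and *jnk-1* (1.70), a stress kinase. Of the DAF-16 targets, 7 were higher, led by *mtl-1* (5.0) and *icl-1* (3.16), an enzyme of the glyoxylate cycle, and *sip-1* was lower (−8.74). Of the ligands, 5 were higher and none was lower, with *ins-7* at 2.28, and *ins-35* had 19 to 52 counts per *glp-4* sample.

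Several members have transcripts of different length, and the estimated counts and TPM values of a gene carry the length that the estimation assigned to it. The count per TPM, centred within each sample and divided by the gene's mean over the 12 samples, varied 1.45-fold between samples for *age-1*, 1.29-fold for *daf-16* and 1.23-fold for *daf-2*, against a median of 1.02-fold and a 90th percentile of 1.23-fold over 4375 well-expressed genes. For *daf-16* it separated the genotypes: 0.882 to 0.909 in *daf-2*, 0.935 to 0.957 in WT and 1.05 to 1.13 in *glp-4* samples. For *age-1* it was 0.763 and 0.851 in *daf-2* replicates 2 and 3 and 0.767 in WT replicate 3, and 0.997 to 1.10 in the other samples, a split that runs through both groups. Transcript-level values were not used here, so these figures describe the estimate and not a measured isoform.

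The genes whose levels ran most alike to each member over the 12 samples were found by Pearson's r on log2 CPM among 15577 genes, as a description without a test, since the 12 samples fall into 5 groups and share libraries. For *daf-18* the closest were *hmg-12*, C14B1.2 and F44E2.7 (r = 0.999 each), and for *age-1* *top-2*, Y6D1A.1 and *swsn-7* (0.998 each). For *daf-16* they were *mxl-3* (0.997), *pkg-2* (0.997) and *itr-1* (0.996), and for *sgk-1* *egl-23* (0.994), H03A11.2 (0.993) and W06H8.6 (0.992). *akt-2* ran closest to *odc-1* (0.986), *ist-1* to *daf-8* (0.987), *akt-1* to C34B2.3 (0.987) and *pdk-1* to *dhs-12* (0.975). The receptor *daf-2* had the weakest best match, *hen-1* at 0.961.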

How the data were processed

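Whole-animal mRNA libraries (TruSeq v2, 50 bp single-end reads, 12 samples) were processed by the authors with Cactus v0.8.4; the submitters' notes also name kallisto, edgeR, DiffBind, ce11 and WBcel235. The authors deposited estimated counts, given as whole numbers without normalization for each gene, and TPM values, which are scaled per length and to the same total in every sample. Being estimates, counts divide reads among transcripts, and in 305 cells a count of 0 stands beside a TPM above 0.

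Counts were tested with edgeR 4.0.16 in R 4.3.3 (filterByExpr, minimum count 10 and minimum total 15, TMM, quasi-likelihood test, Benjamini-Hochberg over all tested genes, called at an adjusted p under 0.05). *daf-2* against WT used those 6 samples, ages the 6 *glp-4* samples in 1 model, and *glp-4* against WT all 12. Alternatives used DESeq2 1.42.0, limma 3.58.1 on log2(TPM + 1) and log2(TPM + 0.1) (mean TPM at or above 1), other scalings and filters, a replicate block and each sample left out. Ratios of TPM were compared with exact permutation tests. Positions came from Ensembl release 115; tables and plots used pandas 2.3.3 and matplotlib 3.10.9.

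Totals ranged from 4538353 to 22484551 counts. Chi-square per degree of freedom between samples of a group was 2.25 to 18.8, above sampling noise, so none is a copy. On simulated counts for *daf-2* against WT (13528 genes), 36% of genes changed 1.25-fold, 48% of those changed 1.5-fold and 88% of those changed 2-fold were called with the right direction. For day 3 against day 1 (13222 genes) the shares were 0%, 34% and 58%. Only a small part of the genes, drawn over all levels, was changed there, whereas 48.0% were called in the real *daf-2* comparison. The shares are therefore not the power for the members. The members and lists were chosen with earlier results of these data known. All 9 members were named; of the other lists, genes past the threshold with the 2 largest changes in each direction per comparison were named. *ins-35* is given as counts because WT samples held 1 to 2. Sequences were not used here.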

Additional observations from a re-analysis of the deposited data

How the results depend on the processing

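Of the values for single members, 428 kept their direction and side of the threshold in settings other than leaving out a sample, 37 lost the call, 5 gained it and 25 changed sign; in leaving out single samples these numbers were 178, 26, 1 and 2. The counts of called members changed by more than 1.5 times only for day 7 against day 3, where upper-quartile factors and limma, at a pseudocount of 1 or 0.1, left 2 of 6, and in leaving out samples: 2 to 4 for day 7 against day 3 and 3 to 7 for day 7 against day 1, next to 8 to 9 for *daf-2* against WT, 6 to 7 for day 3 against day 1 and 8 to 9 for *glp-4* against WT. With 1 sample of an age left, the lone sample is assumed to vary like the other groups.

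Sign changes for day 7 against day 1 were those of *daf-16* (0.088 with upper-quartile factors, 0.42 with library totals, 0.024 with TMM without germline-dependent genes, 0.43 with limma at either pseudocount) and *pdk-1* (0.11 with library totals, 0.0235 and 0.027 with limma). For day 7 against day 3 they were those of *ist-1* (0.038 with upper-quartile factors, 0.43 with library totals, 0.0018 with TMM without germline-dependent genes, 0.24 and 0.27 with limma), *daf-2* (0.29 with library totals, 0.12 with limma at either pseudocount), *daf-16* (0.14 with library totals, 0.0037 and 0.0038 with limma) and, with library totals, *akt-1* (0.091), *akt-2* (0.12) and *sgk-1* (0.067). For *glp-4* against WT, *daf-2* had 0.12 with upper-quartile factors, and *ist-1* and *akt-2* had −0.028 and −0.275 with TMM without germline-dependent genes. On leaving out a sample, *age-1* ranged from −0.29 to 0.012 for day 3 against day 1 and *ist-1* from −0.26 to 0.0535 for day 7 against day 3. Library totals and TPM moved the median of all genes in the same direction; the cause of each sign change was not tested further.

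Same-numbered samples did not deviate together (correlations −0.107 to 0.024 over 21 pairs). With the replicate number as a block, 9, 6, 7, 6 and 9 members were called in the comparisons as listed in the report (*daf-2* against WT, day 3 against 1, day 7 against 1, day 7 against 3, *glp-4* against WT), with *daf-16* lost for day 3 against day 1 at an adjusted p of 0.05, and the log2 ratio differences kept −0.64 and 0.60. Leaving out samples moved these differences over −0.71 to −0.58 and 0.50 to 0.77. The *glp-4* day 7 samples were the shallowest and the ages had 2 samples each, which limits small changes most there.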
